A study of Mus musculus with 12 samples.

Results

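Eml1, Arhgap26, Ptpro and Snx29 are mouse genes that hold top-scoring peaks of full-length ZBTB43 in affinity sequencing of unmethylated (TKO) or CpG-methylated (SssI) genomic DNA. They were chosen by peak score: Arhgap26 and Eml1 hold the 2 TKO peaks tied at the highest score of 4234, Ptpro holds the TKO peak ranked 3 with a score of 3946, and Snx29 holds 1 of the 4 SssI peaks tied at the highest score of 2356. Of the other 3 SssI peaks tied at that score, 2 lay in no annotated gene and 1 lay within the overlapping spans of 1500002F19Rik, Abraxas2 and Fgfr2, which were not chosen. The next scores were 3941 in the TKO list, at a peak in Prmt3, and 2346 in the SssI list, at a peak in Cldn14. Every peak that overlapped the GENCODE M21 span of the 4 genes by at least 1 bp was counted, which gave 16 of the 14694 TKO peaks and 124 of the 175775 SssI peaks. The score is the peak caller's, 10 times the −log10 q-value, and is comparable only within a list, so a peak is given below with its rank in its own list, where tied peaks share the best rank.

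The TKO DNA came from mouse embryonic stem cells of a single clone (clone19, male, Dnmt1-/-Dnmt3a-/-Dnmt3b-/-, age given as 3.5 dpc), which lack the DNA methyltransferases. The SssI DNA came from the lung of adult wild-type male C57BL/6N mice of 2 months, whose CpGs were methylated with M.SssI, a bacterial CpG methyltransferase, after fragmentation. His-MBP-ZBTB43 made in E. coli, or His-MBP alone as background, was held on magnetic beads and incubated with DNA sheared to about 200 bp on average. Each of these 4 conditions had 2 libraries, which the authors pooled before calling peaks on MBP-ZBTB43 against MBP. The lists therefore carry no replicate error and no read counts, the depth behind a peak cannot be read from them, and no test between conditions was made. Coverage of single libraries was not analysed here. The DNAs differ in cell source as well as in methylation, and these cannot be told apart.

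ZBTB43 is a nuclear protein with a BTB domain and C2H2 zinc fingers, which binds purine-pyrimidine repeats (PPRs) such as (CA)n. In a PPR, purines and pyrimidines alternate along the strand, a pattern that favours the left-handed Z form of DNA. Eml1 encodes a microtubule-associated protein, and its loss in mice displaces neurons in the cortex. Arhgap26 encodes GRAF1, a GTPase-activating protein with a membrane-bending BAR domain. Ptpro encodes a receptor-type tyrosine phosphatase of podocytes and neurons, and Snx29 a sorting nexin with a phosphoinositide-binding PX domain. No expression was measured here.

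The sequences at the chosen peaks were not the long uninterrupted CA repeats found at most other peaks of these genes. The following sequences, on the plus strand of GRCm38 (the assembly that mm10 names) and on the sense strand of the genes, show the contrast. Capitals mark unbroken runs of alternating C and A, or of T and G, of 5 bp or more, which are called CA runs below on either strand. The Ptpro array, chr6:137406537-137406648, lies in the TKO peak ranked 3 and is built of 8 copies of 14 bp in 5 versions, of which the most frequent, found 3 times, comes first. The Eml1 array, chr12:108404639-108404754, lies in a TKO peak ranked 1. The Snx29 array, chr16:11384230-11384494, lies in an SssI peak ranked 1. Against these stand the tracts of a weaker Ptpro peak, chr6:137387212-137387300 (SssI rank 24418, no TKO peak), and a weaker Eml1 peak, chr12:108526246-108526309 (SssI rank 63416, no TKO peak).
Ptpro unit: cctgACACACtggt
Ptpro array: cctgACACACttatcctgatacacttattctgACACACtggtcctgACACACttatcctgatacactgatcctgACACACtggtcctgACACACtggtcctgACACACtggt
Eml1 array: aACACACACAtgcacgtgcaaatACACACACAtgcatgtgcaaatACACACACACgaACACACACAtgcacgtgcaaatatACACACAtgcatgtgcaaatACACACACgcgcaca
Snx29 array: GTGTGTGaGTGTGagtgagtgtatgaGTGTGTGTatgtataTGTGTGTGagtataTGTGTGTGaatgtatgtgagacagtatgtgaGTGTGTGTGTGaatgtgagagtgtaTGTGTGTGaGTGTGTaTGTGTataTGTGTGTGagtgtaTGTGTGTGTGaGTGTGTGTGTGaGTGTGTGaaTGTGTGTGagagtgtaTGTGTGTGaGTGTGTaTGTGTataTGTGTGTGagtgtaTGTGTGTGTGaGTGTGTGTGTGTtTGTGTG
Weaker Ptpro peak: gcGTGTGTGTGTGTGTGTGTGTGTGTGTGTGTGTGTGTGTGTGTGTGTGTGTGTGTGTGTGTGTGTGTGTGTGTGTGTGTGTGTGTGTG
Weaker Eml1 peak: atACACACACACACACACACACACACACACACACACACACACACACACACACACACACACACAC

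In each of the first 3 arrays, CA runs were short and regularly interrupted, whereas each weaker peak held 1 long run. The longest CA run was 6 bp in the chosen Ptpro peak and 87 bp in the weaker Ptpro peak, which scored 471 against 1934 for the peak over the array in the same SssI list. The longest CA run was 13 bp in the chosen Eml1 peak and 62 bp in the weaker Eml1 peak, with SssI scores of 1313 and 151. Both weaker peaks hold the longest CA run among the SssI peaks of their gene. Away from the chosen sites, the median longest run of the SssI peaks was 34.5 bp in Ptpro and 35 bp in Eml1. Over the 124 SssI peaks of the genes, Spearman's rank correlation of score with the longest run was 0.004. Over the 16 TKO peaks, which include sites chosen by their score, it was -0.414. These pairs, given with SssI scores, thus show sequence form and no trend in SssI score. All 4 chosen peaks fell in tandem arrays with a unit longer than a microsatellite's 1 to 6 bp. Array and unit were read as the stretch and shift at which the peak sequence best matched itself (match +1, mismatch −2, shifts of up to 120 bp, total of at least 20). The unit was 56 bp in Eml1, 37 bp in Arhgap26, 14 bp in Ptpro and 86 bp in Snx29. Over the arrays of 116, 182, 112 and 265 bp these gave 2.07, 4.92, 8 and 3.08 copies, as counted in the reference genome and not in the DNA used. The same units were found with a mismatch penalty of 3 and within 100 bp of the peak midpoint.

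**Figure D1:**
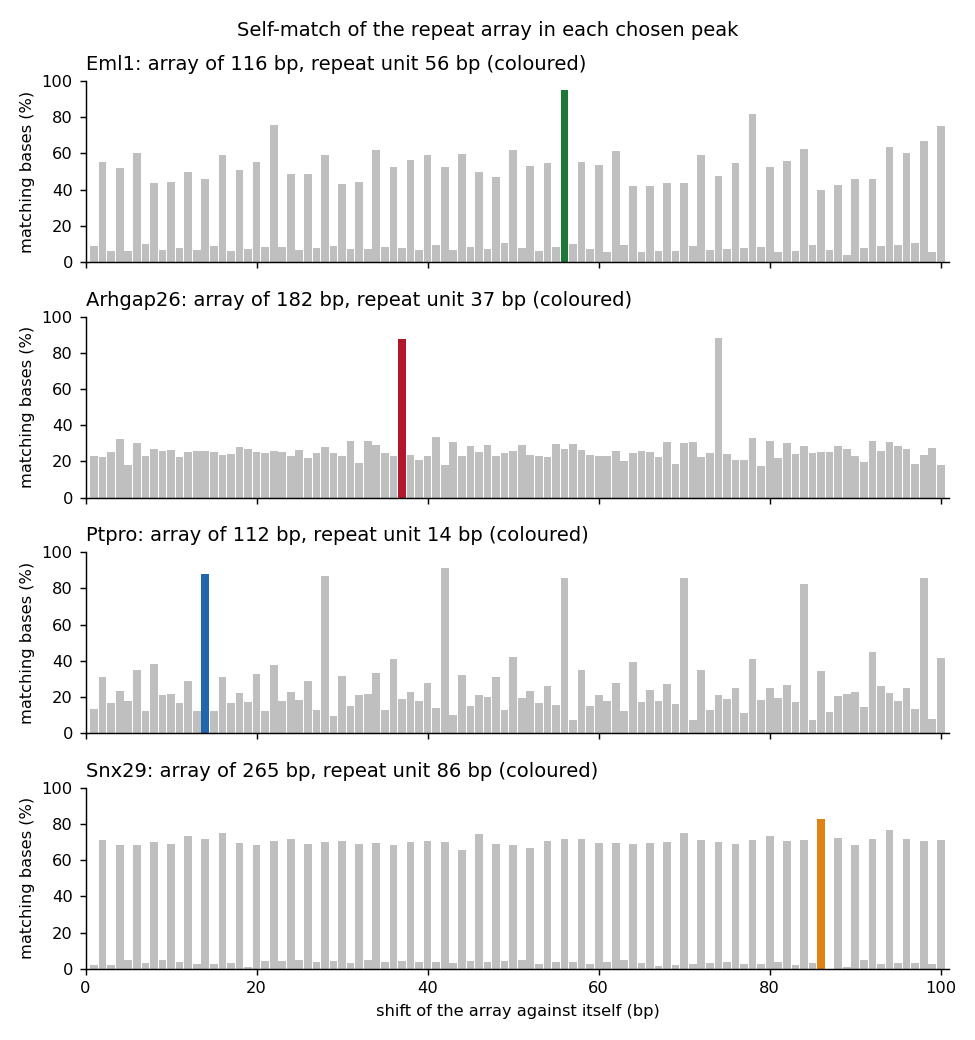
Share of bases of the array in each chosen peak that match the base a given number of bp further on (y axis, percent) against that shift (x axis, bp, 1 to 100), with the repeat unit coloured. Arhgap26 and Ptpro match best at multiples of 37 and 14 bp, whereas Eml1 and Snx29 also match at even shifts of any length, and the 86-bp unit of Snx29 stands at 82.7% over a median of 70.2% at the other even shifts.

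The plot of self-match by shift separates the 4 arrays into 2 forms. At the unit, 87.6% of bases matched in Arhgap26 and 87.8% in Ptpro, against at most 33.3% and 45% at any shift that is no multiple of the unit. These are minisatellite arrays, in which a unit recurs at a fixed step and short CA runs lie within sequence that does not alternate. Not every copy holds a run, as the 8 copies of Ptpro held 6 runs. In Eml1 and Snx29 the match at the unit was 95% and 82.7%, but shifts of an even number of bp gave a median match of 53.1% and 70.2% and odd shifts 7.46% and 3.28%. In these arrays a step of 2 bp thus runs beneath the longer unit, with CA runs broken by other sequence. The 86-bp unit of Snx29 exceeded the next best shift, at 76.6%, by little. In Eml1 the next best shift, of 78 bp, gave 81.6%, and a shift of 22 bp gave 75.5%. The 56-bp unit of Eml1 rests on 2.07 copies.

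The chosen Eml1 peak, chr12:108404446-108405018, was 573 bp wide and held 20 CA runs, all with CA on the sense strand, which lay at a median step of 21 bp over 373 bp. It also held 15 alternating purine-pyrimidine tracts of 12 bp or more (tracts made only of A and T are not counted), which covered 336 bp.

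The chosen Ptpro peak, chr6:137406337-137406823, was 487 bp wide and held 8 CA runs, each of 6 bp at most, at a median step of 14 bp over 136 bp. It held no alternating tract of 12 bp, and its longest alternation of any kind was 10 bp. The repeat masking of the reference covered 16.4% of it, less than in the Ptpro peaks at other sites, where it covered 20.8% to 100%. The chosen Snx29 peak, chr16:11384098-11384667, was 570 bp wide and held 24 CA runs, all with TG on the sense strand, the longest of 12 bp, at a median step of 11 bp. Its 10 tracts covered 167 bp, and none was longer than 23 bp.

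The chosen Arhgap26 peak, chr18:39099120-39099728, was 609 bp wide and held 7 CA runs of at most 6 bp at a median step of 35 bp over 189 bp. It had no alternating tract, its longest alternation was 7 bp, and 3.45% of it was masked as repeat. Its 37-bp array, chr18:39099281-39099462, ended 109 bp before exon 3, which lay wholly inside the peak. That exon, chr18:39099572-39099633, is 62 bp long, and all of it codes for protein in the 3 coding transcripts that include it. The array also overlapped exon 1, of 92 bp, of a non-coding transcript that starts inside the peak.

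The Arhgap26 and Ptpro peaks were the only peaks in the 4 genes without an alternating tract, together with the SssI peaks over them. A tract was present in 14 of the 16 TKO peaks (87.5%, Wilson 95% interval 64.0 to 96.5) and in 122 of the 124 SssI peaks (98.4%, 94.3 to 99.6). In the whole lists, 96.5% of the TKO peaks and 98.7% of the SssI peaks held one. All intervals given here cover counting error over peaks or tracts only.

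**Figure D2:**
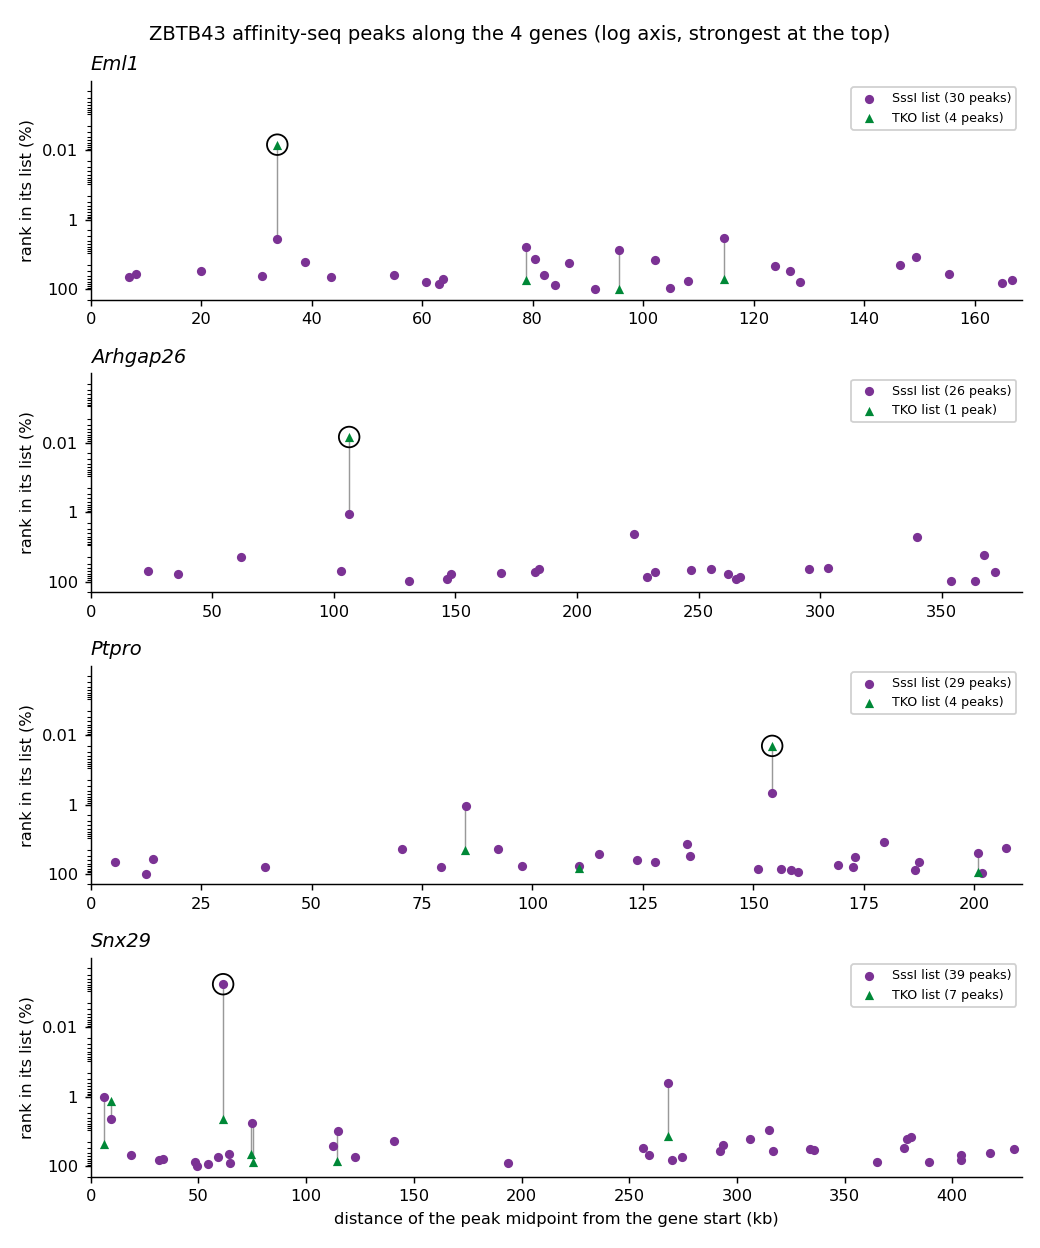
Peaks along the 4 genes, by distance of the peak midpoint from the gene start (x axis, kb) and rank as a percentage of its own list (y axis, log scale, strongest at the top). Triangles are TKO peaks, circles SssI peaks, grey lines join overlapping peaks, and open circles mark the chosen peaks; the chosen TKO peaks rank at 0.0068% to 0.0204% of their list, and the best of the other TKO peaks of these genes at 1.32%.

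The genes span 169 kb (Eml1, chr12:108370957-108539617), 383 kb (Arhgap26, chr18:38993145-39376284), 211 kb (Ptpro, chr6:137252319-137463233) and 433 kb (Snx29, chr16:11322908-11755472). The TKO list gave 4, 1, 4 and 7 peaks in them, and the SssI list 30, 26, 29 and 39. Per Mb this was 13.4 TKO and 104 SssI peaks, against 5.55 and 66.4 over the genome. Eml1 was the densest, with 178 SssI peaks per Mb, and Arhgap26, with 67.9, lay close to the genome's value.

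Placed by midpoint on the coding-first transcript with the most exons, all 16 TKO and 124 SssI peaks lay in introns, and on the longest coding transcript of each gene 15 and 118 did. Over all annotated transcripts of the genes, 2 SssI peaks lay wholly inside an exon, at chr12:108537612-108537831 in Eml1 and chr6:137410829-137410991 in Ptpro. The chosen peaks lay in intron 1 of Eml1, intron 2 of Arhgap26, intron 12 of Ptpro and intron 4 of Snx29. The Eml1 assignment rests on 1 of the gene's 8 annotated transcripts, a non-coding one with a retained intron. The 3 coding transcripts start downstream, the first of them 5523 bp after the end of the peak, at chr12:108410542. Of the Eml1 peaks, 1 TKO and 6 SssI peaks lay before that coding start. An exon of any transcript of the gene was overlapped by 1 TKO peak, the one in Arhgap26, and by 4 SssI peaks, among them those 2.

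The number of peaks differed between introns. Intron lengths were not set beside these counts, so no concentration in an intron can be read from them. In Eml1, 17 of the 30 SssI peaks were in intron 1 of a transcript. Of these, 11 were placed on a coding transcript and 6 on the non-coding one with a retained intron. In Ptpro 11 of 29 were in intron 1. In Snx29 intron 15 held 8 and intron 4 held 7, including the chosen one. In Arhgap26 no intron held more than 4. Peaks with mostly CA on the sense strand numbered 9 in the TKO list and 51 in the SssI list, and those with mostly TG 7 and 67. Neither strand orientation was shared by the chosen peaks, of which those in Eml1, Arhgap26 and Ptpro had mostly CA and that in Snx29 only TG.

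Within Eml1, the chosen peak scored 4234 on TKO DNA and the other 3 TKO peaks 182, 172 and 30, so that the next peak of the gene ranked 7522. It was also the widest, 573 bp against 182 to 417 bp, and held 17 CpGs against 0 to 5. Its longest CA run, 13 bp, was shorter than those of the peaks at chr12:108466583-108466764 and chr12:108485362-108485778, with 35 and 32 bp, and longer than that of the peak at chr12:108449571-108449815, with 10 bp. On SssI DNA the order differed. The peak over the chosen one scored 1313 (rank 6247), and the peak chr12:108485240-108485895 scored 1330 (rank 6012), although its TKO score was 182. The latter peak held no CpG in its TKO part and 2 in its wider SssI part.

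A short array of interrupted runs was found at another Eml1 site. The peak at chr12:108449571-108449815 had a 42-bp unit over 90 bp, 9 runs of at most 10 bp and 5 CpGs. It scored 172 on TKO DNA (rank 7797) but 1038 on SssI DNA (rank 10314), which is 53.1% and 5.87% of the way down the lists.

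Within Ptpro, the chosen peak scored 3946 on TKO DNA and the others 685, 116 and 65. On SssI DNA the same site also came first, with 1934 (rank 821), followed by 1738 (rank 1884) at chr6:137336993-137337375. The remaining SssI peaks of the gene scored 553 or less. The second site held a 10-bp unit over 162 bp and combined a CA run of 35 bp with 12 shorter ones in that stretch, as shown by its sequence.
Ptpro second site, chr6:137337091-137337252: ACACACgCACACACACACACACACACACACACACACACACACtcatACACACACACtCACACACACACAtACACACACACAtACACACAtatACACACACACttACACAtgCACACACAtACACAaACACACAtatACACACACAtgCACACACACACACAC

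By contrast, the TKO peak at chr6:137362749-137362968 held 1 CA run of 56 bp and no CpG, and scored 116 (rank 9557). It was the only TKO peak in the 4 genes that was wider than the SssI peak over it, 220 against 148 bp, and that SssI peak scored 84 (rank 103997). The lowest-scoring SssI peak of Ptpro, chr6:137264636-137264880 (score 28), held 7 CA runs of at most 9 bp and no tandem array. Its longest tract was just 12 bp, and it held 5 CpGs, so short CA runs were also present at a weak site.

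Within Snx29, the chosen peak was 1 of 4 tied at the highest SssI score, and the next SssI peaks of the gene scored 1952 (rank 722), 1748 (rank 1827) and 1224 (rank 7433). On TKO DNA the chosen site was not the strongest of its gene. It scored 2019 (rank 655), below the peak at chr16:11332240-11332762 with 2605 (rank 194), which lay in intron 1 about 9.59 kb from the gene start. Both sites held 23 CA runs in their TKO peaks, but the latter had a 10-bp unit over 258 bp and a longest CA run of 35 bp.

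The second Snx29 site on SssI DNA, chr16:11590416-11591033 in intron 15, was CpG-rich, with 16 CpGs in the SssI peak and 11 in the TKO peak. It scored 1952 on SssI DNA (rank 722) and 1069 on TKO DNA (rank 2027). Its 16-bp unit ran over 282 bp with 10 CpGs, shown in its sequence. The widest peak of the 4 genes, chr16:11397121-11398584, was 1464 bp wide, held 53 CA runs and covered 2 TKO peaks with scores of 235 and 87, which lay 726 bp apart. The peak chr16:11656542-11657005 held an uninterrupted ACACAG hexamer repeat of 77 bp and 63 CA runs of at most 11 bp, and scored 174 with no TKO peak.
Snx29 second site, chr16:11590601-11590882: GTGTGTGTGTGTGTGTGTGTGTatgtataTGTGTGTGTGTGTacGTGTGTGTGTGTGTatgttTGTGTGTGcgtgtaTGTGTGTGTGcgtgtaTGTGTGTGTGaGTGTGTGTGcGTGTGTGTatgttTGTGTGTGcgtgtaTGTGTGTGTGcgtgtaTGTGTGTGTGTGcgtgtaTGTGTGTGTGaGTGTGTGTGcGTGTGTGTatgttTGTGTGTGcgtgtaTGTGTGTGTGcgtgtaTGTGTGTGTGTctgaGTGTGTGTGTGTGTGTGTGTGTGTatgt

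Within Arhgap26, the chosen peak was the single TKO peak of the gene, and the SssI peak over it scored 1715 (rank 2004). The other 25 SssI peaks scored 28 to 1216, and all 25 held a tract, with a median longest tract of 47 bp. They held 1 to 5 CA runs each against 7 at the chosen site, and their width was 120 to 316 bp against 623 bp. The next SssI peaks, chr18:39216258-39216562 with 1216 and chr18:39332565-39332880 with 1120, had CA runs of 51 and 46 bp and no TKO peak. Of all SssI peaks in the 4 genes without a TKO peak, the first of these was the strongest, at rank 7667. The weakest SssI peak of the gene, chr18:39356527-39356652 with a score of 28, held a CACG repeat of 26 bp and 12 CpGs, more than any other SssI peak of Arhgap26.

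**Figure D3:**
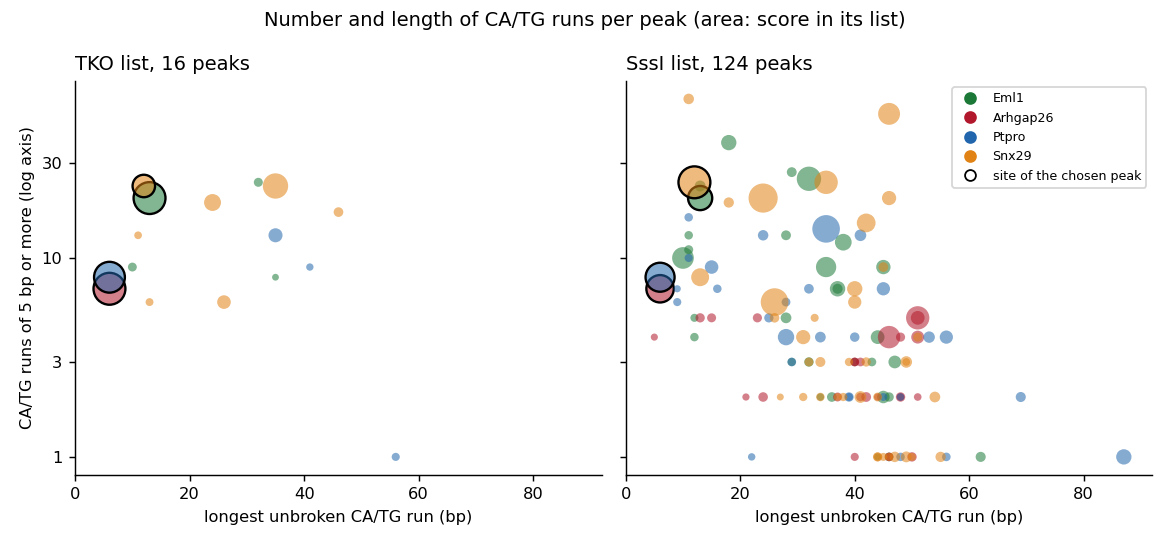
Each peak of the 4 genes by its longest CA run (x axis, bp) and its number of CA runs of 5 bp or more (y axis, log scale), in the TKO list (16 peaks) and the SssI list (124 peaks), with a marker area that grows with the score within its list and black outlines at the chosen sites. The chosen sites lie at a longest run of 6 to 13 bp, while most SssI peaks hold 1 to 4 runs with a longest of 24 bp or more.

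The plot of run number against run length shows 2 common forms of peak. In the SssI list, 69 of the 124 peaks held 4 CA runs or fewer with a longest of 24 bp or more. Their scores ranged from 22 to 1120 with a median of 96, and 1 of the 69 overlapped a TKO peak. Another 29 peaks combined a run of that length with 5 or more runs, with a median score of 362 and 8 overlapping a TKO peak. A further 13 peaks held 7 or more runs of at most 13 bp each, with a median of 191 and 6 overlapping a TKO peak. Without the 4 chosen sites, the last group held 9 peaks with a median score of 102 and a range of 28 to 1038. Of these 9 peaks 2 were within the top 10% of the SssI list, as were 1 of the 69 peaks with 4 runs or fewer and 9 of the 29 with more. These groups were formed after the values were seen and are descriptions.

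A unit of 7 bp or more was found in 9 of the 16 TKO peaks (56.2%, 33.2 to 76.9) and in 16 of the 124 SssI peaks (12.9%, 8.10 to 19.9), against 42.6% and 13.0% in the whole lists. The 4 genes thus lay near the background. Such a unit was present in 9 of the 15 SssI peaks that overlapped a TKO peak (60%, 35.7 to 80.2) and in 7 of the other 109 (6.42%, 3.15 to 12.7). The chosen sites account for 4 of these 9. This split was not made over the whole lists, where TKO peaks also held such a unit more often than SssI peaks. It is therefore not shown to be particular to these genes.

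All 16 TKO peaks overlapped an SssI peak, as did 99.4% of the whole TKO list. In the other direction, 15 of the 124 SssI peaks (12.1%, 7.47 to 19.0) overlapped a TKO peak, against 8.23% of the whole SssI list. In 13 of the 16 pairs the TKO peak lay wholly inside the SssI peak, and in 15 the SssI peak was the wider. The chosen peaks in Arhgap26 and Ptpro were nearly the same width in both lists, 609 and 623 bp in the former and 487 and 501 bp in the latter. Of the 16 SssI peaks of the genes within the top 10% of their list, 13 overlapped a TKO peak, against 68.6% of the top 10% of the whole list.

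The order of the shared sites differed between the lists. Eml1, Arhgap26 and Ptpro sites at TKO ranks of 1, 1 and 3 stood at SssI ranks of 6247, 2004 and 821. Snx29 at SssI rank 1 stood at TKO rank 655. The SssI list is the longer one. The chosen Eml1, Arhgap26 and Ptpro sites ranked in the top 3.55%, 1.14% and 0.467% of the SssI list, and the chosen Snx29 site in the top 4.46% of the TKO list. Tied scores at the head of each list cannot be ordered further by score.

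CpGs were few at most peaks. No CpG was present in 3 of the 16 TKO peaks (18.8%) and in 25 of the 124 SssI peaks (20.2%), against 24.8% and 31.9% of the whole lists. The chosen peaks held 17 (Eml1), 7 (Arhgap26), 6 (Ptpro) and 5 (Snx29), but within 100 bp of the midpoint 9, 0, 2 and 0. The Snx29 and Ptpro arrays themselves, printed above, held no CpG, and that of Eml1 held 5. Per 100 bp, the chosen Eml1 peak held 2.97 CpGs, the highest of its gene's TKO peaks, but 3 of the other 29 SssI peaks of Eml1 were denser than the peak over it.

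Score went with width. Over the 16 TKO peaks, Spearman's rank correlation between score and width was 0.949, and over the 124 SssI peaks 0.777, against 0.765 and 0.795 over the whole lists. The peaks of a list share their libraries, and the genes were chosen by score, so these are descriptions. With CpGs the correlation was 0.615 and 0.387 in the 4 genes and 0.283 and 0.306 in the whole lists, and with the number of CA runs 0.312 and 0.535 against 0.392 and 0.516. A wider peak holds more sequence in which runs and CpGs can be counted. The part of width in these values was not tested. In a fixed window of 100 bp on each side of the midpoint, the 4 chosen sites held 6 to 16 CA runs in the SssI list with a longest of 6 to 11 bp. The other 120 SssI peaks held a median of 3 runs (1 to 28) with a median longest of 38.5 bp (8 to 87). In the TKO list the other 12 peaks held a median of 11 runs (1 to 18) with a median longest of 16 bp (9 to 56). The chosen sites held 6 to 14 runs there, with a median of 9. In that window the chosen sites were thus not above the other TKO peaks in run number.

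**Figure D4:**
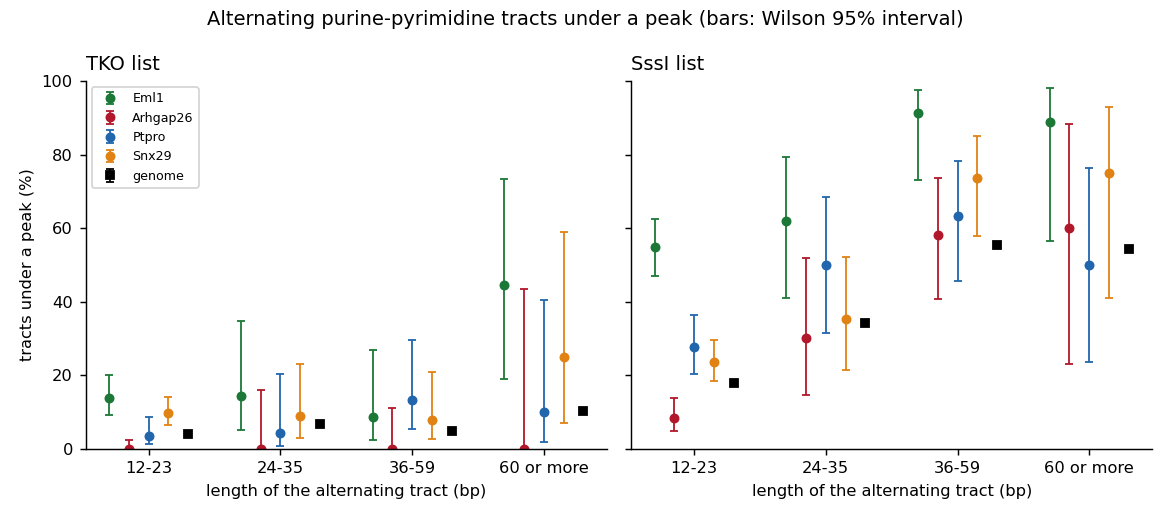
Share of alternating purine-pyrimidine tracts that lie under a peak (y axis, percent) by tract length (x axis, bp), in the 4 genes and the genome, for the TKO and SssI lists, with Wilson 95% intervals. On SssI DNA, 54.9% of Eml1 tracts of 12 to 23 bp are under a peak against 17.8% in the genome, and the share is 8.33% in Arhgap26.

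Most alternating tracts of the 4 genes were under no TKO peak. Of 907 tracts of 12 bp or more, 70 were under a TKO peak (7.72%, 6.15 to 9.64) and 334 under an SssI peak (36.8%, 33.7 to 40.0), against 4.54% and 25.7% in the genome. The plot of tracts by length gives this for each gene. On SssI DNA the share rose with length in the 4 genes together, from 28.0% at 12 to 23 bp to 70.5% at 36 to 59 bp and 68.8% at 60 bp or more. Eml1 exceeded the genome at 12 to 23 bp, with 84 of 153 tracts under a peak, and Arhgap26 lay below it, with 13 of 156. Neighbouring tracts share peaks, and the genes were chosen for their peaks, so these shares are descriptions. None of the 212 tracts of Arhgap26 was under its TKO peak.

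Length alone did not place a tract under a peak. The longest tracts without an SssI peak were 64 bp in Eml1, 62 bp in Arhgap26, 106 bp in Ptpro and 79 bp in Snx29. All but that of Arhgap26 are shown to compare their composition: those of Eml1 and Snx29 were made mostly of AT steps, whereas that of Ptpro contained 8 CA runs of 5 to 9 bp within AT steps. The Ptpro tract lay 2663 bp before the chosen peak, which itself held no tract.
Eml1, chr12:108501829-108501892: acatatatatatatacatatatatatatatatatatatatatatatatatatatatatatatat
Ptpro, chr6:137403568-137403673: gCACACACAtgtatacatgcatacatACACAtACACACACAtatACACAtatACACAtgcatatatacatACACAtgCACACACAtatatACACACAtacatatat
Snx29, chr16:11644147-11644225: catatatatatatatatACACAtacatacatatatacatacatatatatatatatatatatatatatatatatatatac

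Repeat units of 7 bp or more were also found among the neighbours of the chosen peaks at the head of the lists. Of the 7 peaks outside the 4 genes among the 10 strongest TKO peaks, 6 had a unit of 7 bp or more and 4 held no alternating tract, among them peaks in Prmt3, 1700045H11Rik and Itpr1. Of the 9 peaks outside the 4 genes among the 10 strongest SssI peaks, 5 had such a unit, and all 9 held a tract. The longest CA run was 6 to 31 bp in those 6 TKO peaks and 27 to 55 bp in those 5 SssI peaks. A long unit thus does not exclude long CA runs, and the shares below count the unit alone. Over the whole TKO list the share with a long unit was 76.7% (69.2 to 82.8) in the strongest 1%, 65.5% (63.0 to 67.9) in the strongest 10% and 35.7% (34.6 to 36.8) in the lower-scoring 50%. In the SssI list these shares were 52.2% (49.9 to 54.6), 39.4% (38.7 to 40.1) and 6.30% (6.14 to 6.46). Counted only within 100 bp of the midpoint, they were 82.9%, 71.3% and 36.5% in the TKO list and 56.5%, 42.1% and 6.54% in the SssI list.

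**Figure D5:**
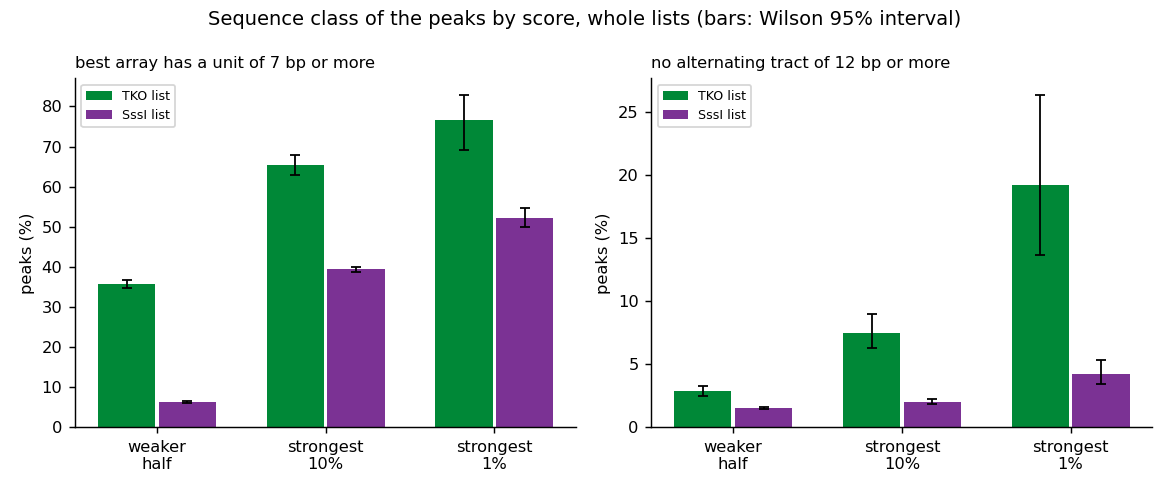
Share of peaks (y axis, percent) whose best tandem array has a unit of 7 bp or more (left) and share without an alternating tract of 12 bp or more (right), by score within the TKO and SssI lists, with Wilson 95% intervals. Peaks without a tract make up 19.2% of the strongest 1% of TKO peaks and 2.86% of the lower-scoring 50%.

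At the head of the TKO list the longest CA run was shorter and CA runs were more numerous than lower down. Over the whole lists, Spearman's rank correlation of score with the longest run was only -0.045 (TKO) and 0.101 (SssI). The shorter runs at the head are thus no trend through the list. The median longest run was 13.5 bp in the strongest 1%, 26 bp in the strongest 10% and 32 bp in the lower-scoring 50%. The median run numbers were 21, 20 and 8, and the median peak widths 529, 493 and 197 bp. In the SssI list the median longest runs of the strongest 1% and the lower-scoring 50% were 28 and 37 bp. These SssI peaks held medians of 16 and 2 runs in widths of 511 and 161 bp. The part of width in the run numbers was not tested. With 20 and 23 runs and longest runs of 13 and 12 bp, the TKO peaks at the chosen Eml1 and Snx29 sites were near the medians of the strongest 1% of the TKO list, while Arhgap26 and Ptpro, with 7 and 8 runs, held fewer.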

How the data were processed

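MBP-ZBTB43 and MBP affinity-seq libraries on TKO and SssI DNA (8 of 12 libraries; the 4 sperm libraries were not analysed here) were aligned to mm10 by the authors with BWA 0.7.17, pooled by condition and called with MACS2 2.2.7.1 at q-value 0.05. The deposited lists give positions and a score per peak, 10 times −log10 q; peak numbers run past the list lengths. The study states a minimum depth for its libraries in common; the lists give no depth per sample, so the precision it gives was not computed. The members, lists and settings were chosen with earlier results of these data known. Peaks overlapping the 4 GENCODE M21 gene spans by 1 bp were ranked within their list, placed by midpoint on the transcript with the most exons, coding ones first, and read on GRCm38 for tracts, CA runs, CpGs and arrays with Python 3.11.15, numpy 2.4.6 and numba 0.67.0; scipy 1.17.1 gave rank correlations and matplotlib 3.10.9 the figures. Of 2 Arhgap26 gene models, the one with 12 transcripts was used. Named peaks were those ranked highest in each gene, TKO peaks, peaks without a tract, the widest and those with the longest tract, beside the 10 strongest of each list; peaks named for an odd repeat, for 1 long run or as weakest, and tracts without a peak, were chosen after their values were seen. Counting was tested on simulated data. The pooled lists allow no test between groups, and coverage of single libraries was not analysed here. Alternatives covered the q-value, overlap, tract length, window, span, merging, ties and transcript. Some sequences are not reported here.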

Additional observations from a re-analysis of the deposited data

How the results depend on the processing

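Changing 1 choice at a time gave 90 values to set beside the reported ones. A share that left its 95% interval, or a count that changed by more than 1.5 times, was taken as moved, which was the case for 18 and not for the other 72. Of the 18, 4 are CpGs per 100 bp set beside CpG counts, a change of unit, which leaves 14. Adding the second Arhgap26 gene model, an alternative added after seeing the data like those of the array settings, raised its peaks to 3 in the TKO list and 53 in the SssI list. Requiring a tract of 24 bp lowered the share of peaks with a tract to 62.5% (TKO) and 91.1% (SssI), and among tracts of 24 bp or more 59.7% were under an SssI peak. CpGs in the chosen peaks of Eml1, Arhgap26, Ptpro and Snx29 were 9, 0, 2 and 0 within 100 bp of the midpoint and 2.97, 1.15, 1.23 and 0.877 per 100 bp. Ranked by width, these peaks stood at 916, 738, 1596 and 4882, and with ties broken by width Eml1 stood at rank 2. Thresholds of q 0.01 and 1e-05, 50% overlap, merging within 200 bp and other transcripts moved none of the counts of peaks, shared peaks or intron peaks by more than that. No paired analysis was possible because the lists used here were called on pooled duplicates, and for the same reason no replicate was left out. Copy numbers of arrays in the DNA used, and how well short reads align in them, were not tested, and the lists give no depth.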

Other observations

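Among the strongest 1% of the whole TKO list, 28 of 146 peaks held no alternating tract, and 26 of these 28 had an array with a unit of 7 bp or more, of 29.5 bp at the median, with a median of 11 CA runs and a median longest run of 6 bp. In the strongest 1% of the SssI list 75 of 1757 peaks held no tract, and 72 of the 75 had such an array, with a median unit of 28 bp. In the lower-scoring 50% of the TKO list, 136 of 210 peaks without a tract (64.8%) had such an array, and in that of the SssI list 600 of 1365 (44.0%). Among all peaks, with or without a tract, the shares in the strongest 1% were 76.7% (TKO) and 52.2% (SssI). In the lower-scoring 50% they were 35.7% and 6.30%.

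A second annotated Arhgap26 gene model starts upstream, at chr18:38676718, and ends inside the first at chr18:39110534. It held 3 TKO and 32 SssI peaks, the chosen peak included, and its span also contains Fgf1, which encodes a fibroblast growth factor.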
